A study of Mus musculus with 9 samples.

Results

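The genes described here encode the protein components of the cytosolic ribosome. They were taken as the protein-coding rows of the expression table with an Rpl or Rps symbol and number, together with Rpsa, Rplp0, Rplp1 and Rplp2. S6 kinases and pseudogene rows were left out. The symbols gave 85 genes, and 81 of these averaged 1 FPKM or more across the 9 libraries, out of 35397 rows in all and 14588 rows at that level. FPKM is a read count scaled by sequencing depth and by the length of the gene, here the merged length of all annotated exons. For the 81 genes that length was 1.0 to 2.94 times the length of the transcript used here, so levels of different genes are only roughly comparable. The transcript used was the longest annotated one of each gene, which need not be its main mRNA. By name 47 of the 81 belong to the large subunit and 34 to the small subunit. Rpl21, with a mean of 1.24 FPKM, was just inside the limit. Rpl24, a large subunit protein that joins late in assembly, was just outside it with a mean of 0.645 FPKM, and Rpl3l, Rpl36al and Rpl39l were the other 3 genes below it.

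The table holds retinal RNA from wild-type mice (5 libraries, 1 to 5) and from db/db mice (4 libraries, numbered 1, 3, 4 and 5), in a series on gene expression in diabetic retina. db/db mice carry a mutation of the leptin receptor in all tissues and become obese and diabetic. The labels give the tissue and the genotype only. The sources used here do not state strain, sex, age, treatment or whether libraries came from separate animals, so p-values measure only the spread between these libraries, which may be technical. Each library held 36.6 to 47.9 M reads, as recovered from the steps of the FPKM values. All 22 retinal marker genes checked were at 1 FPKM or more. Lepr, the mutated gene, was between 0.0264 and 0.0689 FPKM in the 9 libraries. This summed value does not check the labels, because the db mutation acts on the splicing of a single isoform.

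A ribosome is built from a small subunit, which reads the mRNA, and a large subunit, which joins amino acids. Each protein is present in near equal number, and its mRNA is among the most abundant in most cells. Ribosomal protein mRNAs typically begin with a C followed by an unbroken run of C and T bases, the terminal oligopyrimidine (TOP) motif, through which mTOR signalling controls their translation. In the retina, photoreceptors renew their outer segments throughout life and therefore depend on steady protein synthesis.

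The sequence around the transcription start is shown for 7 genes on which the results below turn: Rps6, Rpl19, Rps25 and Rpl22l1, which passed a test, Rps18, whose level varied most, and the stalk proteins Rplp2 and Rplp0, one with a long run of pyrimidines and one with a short run. Each window holds 20 bases before the start and 12 from the start on, 5′ to 3′ on the strand of the gene, in RefSeq's GRCm38.p6. Capitals mark the longest run of C and T in the window that begins with C.
Rps6, chr4:86857356-86857387, minus strand: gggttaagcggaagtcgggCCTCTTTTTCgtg
Rpl19, chr11:98026904-98026935, plus strand: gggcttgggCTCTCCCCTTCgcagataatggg
Rps25, chr9:44407694-44407725, plus strand: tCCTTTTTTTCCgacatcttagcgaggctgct
Rpl22l1, chr3:28805488-28805519, plus strand: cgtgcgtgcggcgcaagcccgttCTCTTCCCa
Rps18, chr17:33955654-33955685, minus strand: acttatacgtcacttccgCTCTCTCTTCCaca
Rplp2, chr7:141447631-141447662, plus strand: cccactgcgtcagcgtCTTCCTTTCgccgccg
Rplp0, chr5:115559447-115559478, plus strand: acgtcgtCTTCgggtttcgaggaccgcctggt

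The run was 10 bases long in Rps6 and began 1 base before the annotated start. In Rps18 it was 11 bases long and began 2 bases before the start. It was 4 bases long in Rplp0 and began 13 bases before the start. In Rps25 and at the Rpl19 start shown it was 11 bases long. It began 19 and 11 bases before the start and ended before it. In Rplp2 it was 9 bases long and began 4 bases before the start, and in Rpl22l1 8 bases long and 3 bases after it. Runs away from the annotated start do not by themselves mark a TOP motif. For Rpl19 the table lists 2 starts, and the one shown is the second; at the first the run was 5 bases long. The run was 6 bases long in Rpl11, 3 in Rps3, Rps4x and Rpl10, and 2 in Rpsa, so the long runs shown do not stand for all of the genes. Of the 81 genes 61 had a start in the table, with 72 starts in all. A C at the start followed by at least 4 C or T bases was found at 14 of the 72 starts (19.4%) and at 2.51% of all 32851 starts in the table. With a run of a C and at least 6 C or T bases anywhere within 20 bases of the start, a rule set after the first was seen, the shares were 48.6% (35 starts) and 18.7%. CCGGAAG, the core bound by ETS family factors, was found on either strand of the 300-base promoter at 26 starts (36.1%) against 8.86% of all. GGGCGG, the core of the Sp1 site, was at 45 starts (62.5%) against 35.7%, and TATAAA was at 7 (9.72%) against 13.6%. The YY1 motif searched was at 0 starts against 0.633% of all, which says only that its letters are not in the window.

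In wild-type retina the 81 genes summed to 4588 ± 245 FPKM (SD, n = 5), or 1.73% ± 0.084 of the FPKM of all rows. Their means over the 9 libraries spanned from 1.24 to 597 FPKM, with a median of 39.8. Of the 81 genes 11 were above 100 FPKM, 53 were between 20 and 100, and 17 were below 20. The 3 highest were Rplp1, an acidic protein of the stalk that recruits elongation factors (597 FPKM), Rps15, in the head of the small subunit (386 FPKM), and Rpl8, near the peptidyl transferase centre (209 FPKM). The 3 lowest were Rpl13a (3.32 FPKM), Rps10 (2.29 FPKM) and Rpl21 (1.24 FPKM). Per transcript length the same 3 were highest, and the 3 lowest were Rps10, Rpl22l1 and Rpl21.

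Levels were tight between wild-type libraries for most of the genes. The coefficient of variation over the 5 libraries had a median of 6.69%. It was under 10% for 60 genes, 10% to 20% for 14, and 20% or more for Rpl3, Rpsa, Rps27a, Rps10, Rps27, Rps27rt and Rps18. Large subunit genes summed to 1.55 ± 0.0375 times the small subunit genes in wild type (SD, n = 5). The same ratio was 1.47, 1.62, 1.64 and 1.59 in db/db 1, 3, 4 and 5.

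A single library, db/db 1, stood apart in these genes. Their summed level was 4800.2, 4635, 4640.3, 4698 and 4165 FPKM in wild type 1 to 5, and 9419, 4755, 3977 and 4863 FPKM in db/db 1, 3, 4 and 5. The sum in db/db 1 was 2.05 times the wild-type mean and made up 3.03% of all FPKM in that library. Of the other 3 db/db libraries, db/db 3 lay within the wild-type range, db/db 4 below it and db/db 5 above it. All 81 genes were higher in db/db 1 than in every wild-type library, and db/db 1 was the highest of the 9 libraries for 79 of them. Of all tested genes 55.6% were above the wild-type mean in db/db 1. How many of them were above every wild-type library, or highest in db/db 1, was not counted. With 1 library there is no test of this difference.

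**Figure D1:**
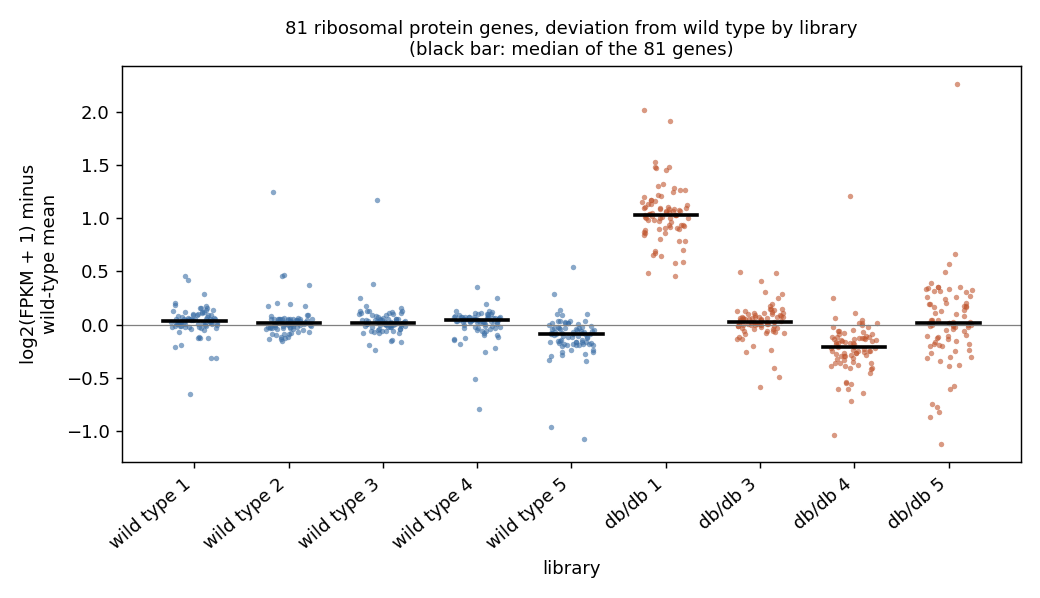
Deviation of each of the 81 genes from its wild-type mean on the log2(FPKM + 1) scale (vertical axis), by library (horizontal axis). Points are genes, blue for wild type and red for db/db, and the black bar is their median. The median is 1.03 in db/db 1, between -0.09 and 0.04 in the wild-type libraries, and -0.21 in db/db 4.

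On the log2(FPKM + 1) scale the median of the 81 deviations from the wild-type mean was 1.03 in db/db 1, 0.03 in db/db 3, -0.21 in db/db 4 and 0.01 in db/db 5. The 5 wild-type libraries ranged from -0.09 (wild type 5) to 0.04 (wild type 4). db/db 4 was the lowest of the 9 libraries for 50 genes, wild type 5 for 14 and db/db 5 for 8. This was not counted over all tested genes, whose median deviation in db/db 4 was -0.04. db/db 5 was not shifted in its median, but its genes were spread more widely, with quartiles at -0.18 and 0.20 against -0.02 and 0.09 in db/db 3.

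The difference in db/db 1 was of similar size across the genes. The ratio of db/db 1 to the wild-type mean had a median of 2.06 and lay between 1.5 and 2.5 for 70 of the 81 genes. It was lowest for Rps15a (1.38) and Rpl15 (1.42). The 9 genes above 2.5 were Rps21, Rps19, Rpl7a, Rps27, Rpl36, Rpl37a, Rps27a, Rps18 and Rpl17. The highest ratio, 3.95, was that of Rpl17, which lines the peptide exit tunnel and measured 17.2, 13.9, 14.9, 13.7 and 16.3 FPKM in wild type and 59.9, 21.8, 14.9 and 17.4 FPKM in db/db. Most of the reads of Rpl17 lie in pseudogene rows, and with those reads added its ratio was 2.23. The median of the 81 genes was then 2.06, and the highest ratio was that of Rps18 (3.31). The ratio of Rps18 rests on a wild-type mean of 16.3 FPKM over libraries that ranged from 6.0 to 31.3 FPKM, against 54.3 in db/db 1. The medians of large and small subunit genes in db/db 1 were 1.01 and 1.08 above wild type.

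Other features of db/db 1 moved with this difference. Its total FPKM was 311179, against 252832 to 268139 in the other 8 libraries, and its genes were shifted by transcript length. With all tested genes in 10 bins of equal size by transcript length, the median deviation from wild type in db/db 1 was 0.38, 0.52 and 0.45 in the 3 shortest bins and -0.44 in the longest. By their longest annotated transcript the ribosomal protein genes are short, with a median of 1094 bases against 3038 for all tested genes. In the 3 shortest bins fell 17, 36 and 13 of the 81. The longest transcript, up to 5179 bases among the 81, may exceed the main mRNA, so bins and length correction are approximate. Within these bins their medians were 1.13, 1.04 and 0.86. Of the 81 genes 49 (60.5%) were more than 1 log2 unit above wild type in db/db 1, compared with 481 (3.3%) of all tested genes. After a correction of each library by transcript length the median of the 81 genes in db/db 1 was 0.58 above wild type, a 1.49-fold difference, and after a correction by GC content it was 0.94, a 1.92-fold difference.

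**Figure D2:**
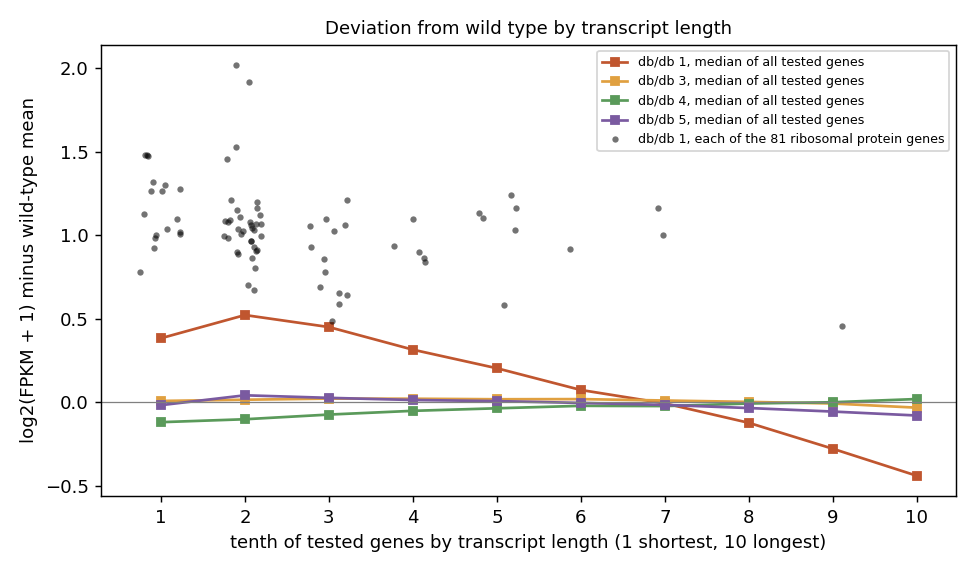
Median deviation from wild type of all tested genes in each of 10 bins by transcript length (squares and lines, 1 colour for each db/db library; vertical axis, log2(FPKM + 1) minus the wild-type mean; horizontal axis, 1 shortest to 10 longest), with each of the 81 ribosomal protein genes in db/db 1 as a black dot. The line of db/db 1 runs from 0.52 in the second bin to -0.44 in the longest, while the black dots lie between 0.46 and 2.02.

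Markers of some tissues outside the neural retina were also higher in db/db 1 than in wild type. The 7 skeletal muscle markers summed to 195 FPKM in db/db 1, against 4.22 to 5.91 in wild type and 6.17, 21.2 and 6.44 in db/db 3, 4 and 5, and all 7 were above every wild-type library. The 10 pigment epithelium markers summed to 431 FPKM against 126 to 202 in wild type, with 9 of 10 above every wild-type library. The 7 blood markers summed to 72.6 FPKM against 14.7 to 26.2, with 4 of 7 above. The 13 lens markers summed to 196 FPKM, against 21.4 to 160.3 in wild type and 323 in db/db 5. The 10 vessel markers summed to 72.2 FPKM against 52.5 to 60.0 in wild type, and the 11 microglial and immune markers to 21.8 against 16.7 to 22.5. The 22 retinal markers summed to 12471 FPKM, within the wild-type range of 11886 to 12577. None of these markers was at 0 in all libraries. Rpl3l, a paralog of Rpl3 known from striated muscle, was at 2.76 FPKM in db/db 1 and between 0.0959 and 0.325 FPKM in the other libraries. The part of these tissues or of transcript length in the ribosomal protein difference was not tested, and in bulk tissue more cells of a type and more RNA per cell cannot be told apart.

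db/db was compared with wild type across all tested genes, once with all 9 libraries and once without db/db 1. Both comparisons use the same 5 wild-type libraries. With all 9 libraries none of the 81 genes passed the test (limma on log2(FPKM + 1), adjusted p under 0.05, smallest adjusted p 0.213). Of all 14588 genes 34 were higher (0.233%) and 39 lower (0.267%). Of the 81 genes 74 (91.4%) had a change above 0, against 50.7% of all tested genes. Their median was 0.21 on the log2 scale against 0.00345 for all tested genes. The median was 0.22 for the large and 0.21 for the small subunit. The standard error was also larger than usual, with a median of 0.22 against 0.10 over all tested genes. At an unadjusted p under 0.05 there were 2 of the 81 genes, Rplp0 and Rpl21 (2.47%), against 19.3% of all genes, and limma-voom on the recovered reads also called 0. No gene of the 81 had groups that did not overlap, while 5.2% of all genes did so upward and 6.38% downward.

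Without db/db 1, 5 of the 81 genes (6.17%) passed the test as lower in db/db: Rpl23a, Rpl22l1, Rps25, Rpl19 and Rps6. None passed as higher. Over all tested genes 5.84% were lower (852) and 4.72% higher (688), so the share of lower genes was close to the background. With every library scaled to an equal sum of FPKM the split over all genes was 1050 higher and 610 lower without db/db 1, and 21 higher and 15 lower with all 9 libraries, and the count among the 81 genes was still 5 lower and 0 higher, and 0 in both directions. The median change of the 81 genes was -0.04 on the log2 scale against -0.02 for all tested genes. Of the 81 genes 31 (38.3%) were above 0 and 50 below, where 45.7% of all tested genes were above 0. An unadjusted p under 0.05 was reached by 16 of the 81 (19.8%) against 30.1% of all genes, 1 of them, Rplp0, upward. Groups did not overlap for 0 genes upward (9.63% of all genes) and 5 downward, or 6.17% (11.5% of all genes). These 5 were Rps6, Rpl19, Rpl23a, Rpl6 and Rpl22l1. In the same comparison 3 of 22 retinal markers were lower (Sag, Rlbp1 and Slc1a3), 1 of 6 muscle markers was higher (Acta1), 3 of 9 vessel markers were higher and 2 lower, and 1 of 5 microglial markers was lower (C1qa). No pigment epithelium, lens or blood marker passed. The part of other cell types in the ribosomal protein changes was not tested.

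**Figure D3:**
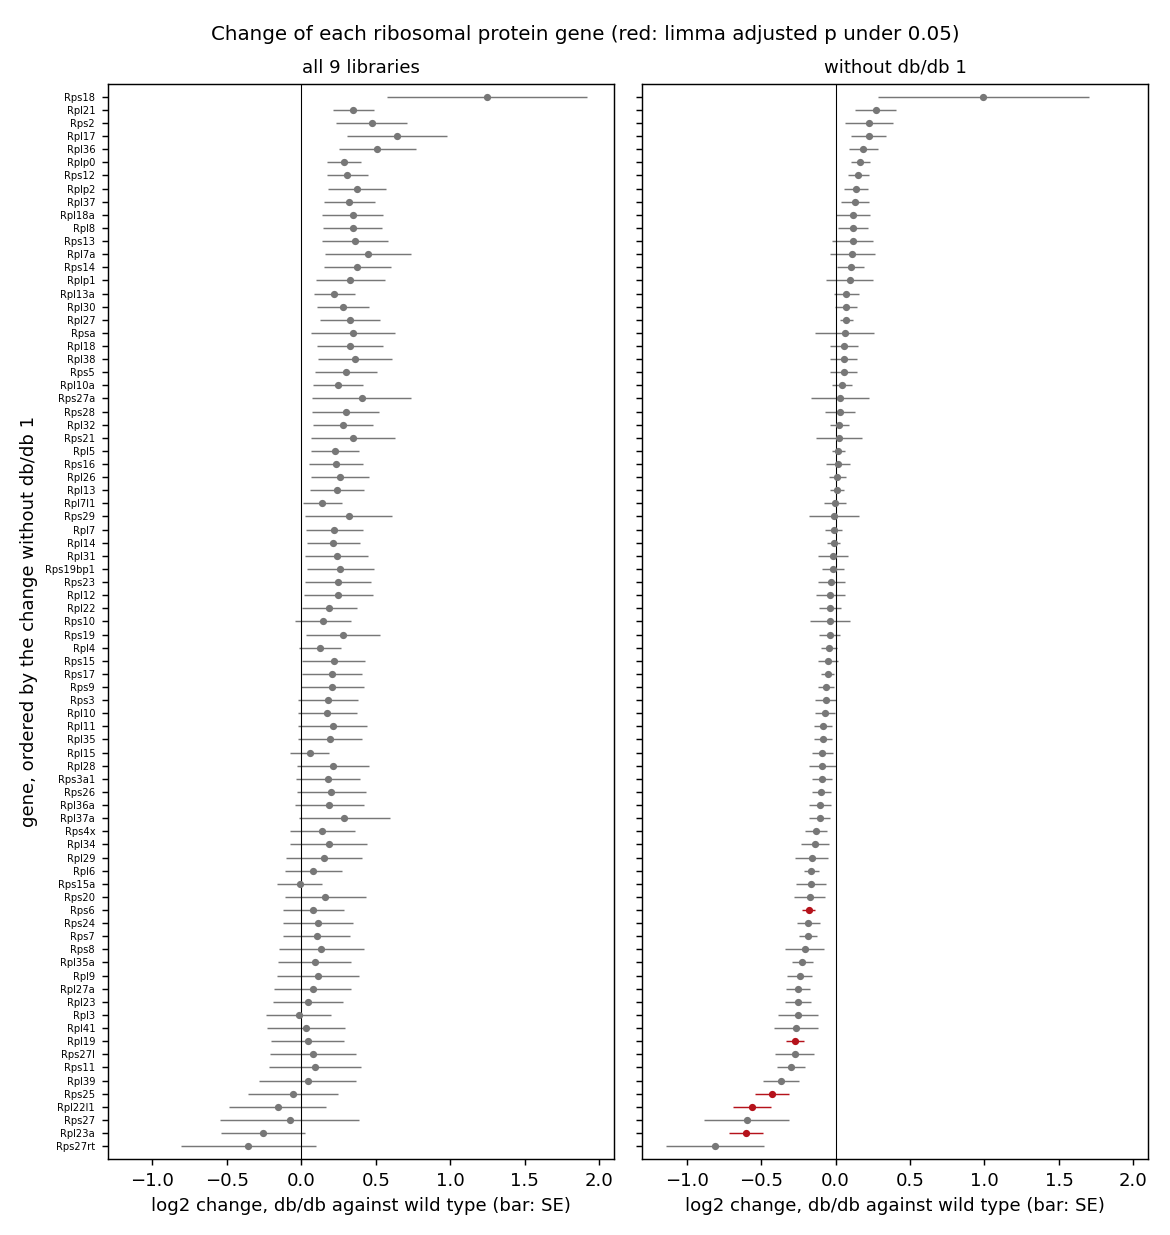
Change of each of the 81 genes in db/db against wild type on the log2(FPKM + 1) scale (horizontal axis) with its standard error, for all 9 libraries (left) and without db/db 1 (right), in the order of the right panel. Red points passed the limma test at an adjusted p under 0.05. The left panel is centred at 0.21 with wide bars and no red point, and the right panel at -0.04 with 5 red points.

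Rps6, the small subunit protein phosphorylated by S6 kinases below mTOR, lies on chromosome 4 (86854660 to 86857412, mm10, minus strand). It measured 111, 108, 109, 112 and 107 FPKM in wild type and 101, 92.4 and 95.9 FPKM in db/db 3, 4 and 5. These 3 values were below every wild-type value, while db/db 1 was at 199.99 FPKM. The change was -0.18 ± 0.04 (SE) on the log2 scale without db/db 1, with a limma adjusted p of 0.0318. With all 9 libraries it was 0.08 ± 0.20, adjusted p 0.846.

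Rpl19, a large subunit protein that takes part in a bridge between the subunits, lies on chromosome 11 (98026710 to 98030492, plus strand). It measured 69.4, 66.7, 70.2, 70.9 and 63.8 FPKM in wild type and 136, 61.9, 52.8 and 54.6 FPKM in db/db 1, 3, 4 and 5. The groups did not overlap once db/db 1 was set aside. The change without db/db 1 was -0.27 ± 0.06 (SE), limma adjusted p 0.0272.

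Rpl23a, which binds near the exit of the peptide tunnel, lies on chromosome 11 (78180932 to 78183584, minus strand). It measured 42.6, 46.4, 44.2, 36.0 and 37.0 FPKM in wild type and 71.3, 30.6, 28.0 and 22.1 FPKM in db/db 1, 3, 4 and 5. It fell from 41.2 ± 4.54 (SD, n = 5) to 26.9 ± 4.38 FPKM (SD, n = 3), or to 0.652 times wild type, against 0.592 times for Rpl22l1. The change on the log2(FPKM + 1) scale was -0.60 ± 0.11 (SE), limma adjusted p 0.0189. The call passed in 18 of 22 alternative analyses, against 11 to 15 of 21 or 22 for the other 4.

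Rps25, a small subunit protein used by viral internal ribosome entry sites, lies on chromosome 9 (44407139 to 44410427, plus strand). It measured 35.8, 35.4, 36.9, 34.0 and 32.1 FPKM in wild type and 74.0, 32.9, 22.5 and 22.6 FPKM in db/db 1, 3, 4 and 5. The fall was carried by db/db 4 and 5, and db/db 3 lay within the wild-type range. The change was -0.43 ± 0.11 (SE), limma adjusted p 0.0442. Trappc4 (mean 9.38 FPKM) and Ccdc84 (mean 6.41 FPKM) overlap Rps25 on the opposite strand, and without stated strand the reads of the overlap cannot be assigned.

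Rpl22l1, the paralog of Rpl22, lies on chromosome 3 (28805436 to 28807424, plus strand). It measured 3.49, 4.08, 3.79, 3.02 and 3.0 FPKM in wild type and 8.26, 2.72, 1.93 and 1.52 FPKM in db/db 1, 3, 4 and 5. The change without db/db 1 was -0.56 ± 0.13 (SE), limma adjusted p 0.0301. Its partner gene Rpl22 did not pass in either comparison. All 5 calls were lost when wild type 3 or db/db 5 was left out as well, when no filter on low values was used, and with a replicate block. Over the alternatives run without db/db 1 the change stayed below 0, from -0.29 to -0.14 for Rps6, -0.34 to -0.23 for Rpl19, -0.61 to -0.34 for Rps25, -0.70 to -0.47 for Rpl23a and -0.76 to -0.43 for Rpl22l1.

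Several genes at the ends of the ranking did not pass. Rps27rt, a retrogene copy of Rps27, measured 67.2, 69.8, 44.7, 64.1 and 23.3 FPKM in wild type and 102, 33, 30.1 and 22.4 FPKM in db/db 1, 3, 4 and 5. Wild type 5 was at the level of the 3 lower db/db libraries, and the change without db/db 1 was -0.81 ± 0.33 (SE), limma adjusted p 0.133. With wild type 5 left out as well, the limma adjusted p was 0.0324. Since the library that went against a fall was removed, this value is no support for a fall. Rps27 itself measured 11.4, 13.5, 19.2, 9.86 and 21.6 FPKM in wild type and 42.3, 14.7, 6.57 and 8.04 FPKM in db/db, with a change of -0.60 ± 0.29 and an adjusted p of 0.194. At the other end Rps2 measured 52.1, 45.3, 42.9, 39.5 and 34.5 FPKM in wild type and 99.9, 50.5, 38.5 and 63.6 FPKM in db/db, and Rpl36 measured 86.2, 86.1, 84.7, 85.1 and 73.8 FPKM against 233, 103, 78.8 and 104 FPKM. Neither passed without db/db 1, with adjusted p values of 0.376 and 0.218 (limma). For Rpl36 db/db 4, at 78.8 FPKM, was the db/db library within the wild-type range. With db/db 4 left out too, only db/db 3 and 5 remained, both above every wild-type library, and the limma adjusted p was 0.0466. As the opposing library was the one removed, that value is no support for a rise. Rpl21 measured 0.983, 0.923, 0.864, 1.01 and 1.11 FPKM in wild type and 1.97, 1.01, 1.14 and 2.14 FPKM in db/db, with a change without db/db 1 of 0.27 ± 0.14 (SE) and a limma adjusted p of 0.215. Rpl7a, among the largest differences with all 9 libraries, measured 40.8, 34.4, 30.8, 43.7 and 34.2 FPKM in wild type and 102, 48.8, 30.7 and 41.2 FPKM in db/db.

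The 3 stalk proteins, which form the landing site for elongation factors, did not pass in either comparison. Rplp1 measured 591, 539, 529.5, 543 and 410.4 FPKM in wild type and 1067, 593, 423 and 679 FPKM in db/db 1, 3, 4 and 5. Wild type 5 and db/db 4 were low and alike. Rplp0 measured 123, 110.0, 109.6, 125 and 113 FPKM in wild type and 183, 122, 138 and 131 FPKM in db/db, and it had the smallest adjusted p of the 81 in the upward direction without db/db 1 (0.113, change 0.17 ± 0.06, limma). Rplp2 measured 31.5, 31.1, 29.2, 31.9 and 28.6 FPKM in wild type and 65.6, 33.2, 29.4 and 38.9 FPKM in db/db. In wild type Rplp1 was at 523 ± 67.2, Rplp0 at 116 ± 7.29 and Rplp2 at 30.5 ± 1.46 FPKM (SD, n = 5). The merged exons of Rplp2 are 2072 bases long, 2.15 times its transcript, while those of Rplp1 equal its transcript of 499 bases, so part of the distance between the 2 levels comes from the length used. Over the 9 libraries the means per transcript length were 597 for Rplp1, 157 for Rplp0 and 76.3 for Rplp2.

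Rpl5 and Rpl11, which carry the 5S RNA into the large subunit and bind Mdm2 when ribosome assembly fails, did not pass in either comparison. Rpl5 measured 32.3, 32.4, 33.3, 35.9 and 33 FPKM in wild type and 60.5, 34.7, 32.8 and 34.0 FPKM in db/db 1, 3, 4 and 5. Rpl11 measured 34.5, 34.2, 31.7, 33.8 and 30.3 FPKM in wild type and 70.9, 33.7, 29.0 and 30.3 FPKM in db/db. Without db/db 1 their changes were 0.02 ± 0.05 and -0.08 ± 0.06 (SE), with limma adjusted p values of 0.805 and 0.401. For both genes all libraries other than db/db 1 lay between 29.0 and 35.9 FPKM.

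Of the remaining genes with a known special role, none passed in either comparison. Rpsa, also the laminin receptor precursor, ranged from 30.3 to 50.3 FPKM in wild type and was 85.7, 37.7, 28.2 and 51.5 FPKM in db/db 1, 3, 4 and 5. Rps3, which lines the mRNA entry channel, was 38.1 ± 1.88 FPKM in wild type (SD, n = 5) and 72.8, 39.6, 31.9 and 38.0 FPKM in db/db. Rpl10, which joins the large subunit late, was 43.8 ± 2.88 FPKM and 83.0, 42.3, 38.4 and 44.2 FPKM. Both Rpl10 and Rps4x lie on the X chromosome, and Rps4x was 92.4 ± 6.52 FPKM in wild type and 181, 90.2, 76.2 and 85.9 FPKM in db/db. Rps19, mutated in Diamond-Blackfan anaemia, was 6.11 ± 0.536 FPKM and 15.8, 6.10, 5.54 and 6.08 FPKM. Rpl38, needed for translation of Hox mRNAs in the embryo, was 82.3 ± 2.58 FPKM and 201, 89.6, 71.0 and 98.4 FPKM. In each of these genes db/db 1 was the highest library, and in Rpsa, Rps3, Rpl10, Rps4x and Rpl38 db/db 4 was the lowest.

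Rps27a, Fau and Rack1 did not pass in either comparison. Rps27a, translated as a fusion with ubiquitin, measured 14.7, 21.2, 19.4, 13.8 and 13.2 FPKM in wild type and 48.5, 23.0, 14.5 and 13.5 FPKM in db/db 1, 3, 4 and 5. Fau and Rack1, components of the ribosome without an Rpl or Rps name, were 2.16 and 1.76 times wild type in db/db 1. Without db/db 1 their changes were -0.05 and 0.24 on the log2 scale, with limma adjusted p values of 0.72 and 0.0675, so neither passed. Rack1, a scaffold for kinases on the small subunit, measured 41.0, 39.2, 40.2, 44.6 and 37.2 FPKM in wild type and 47.3, 43.5 and 53.8 FPKM in db/db 3, 4 and 5. The 2 highest of these 8 libraries were db/db 5 and db/db 3, while db/db 4 lay within the wild-type range.

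Of the paralogs and name-alikes, Rpl22l1 was the one that passed. Rps27l, a paralog of Rps27 and a p53 target, measured 4.35, 4.84, 5.99, 5.65 and 5.30 FPKM in wild type and 12.6, 5.20, 4.23 and 3.15 FPKM in db/db 1, 3, 4 and 5, with a limma adjusted p of 0.187 without db/db 1. Rpl7l1, a nucleolar relative of Rpl7, was 10.5 ± 0.745 FPKM in wild type (SD, n = 5) and 16.2, 11.3, 9.23 and 10.8 FPKM in db/db. Rps19bp1 is a binding partner of Rps19 rather than a ribosomal component, and was taken in by its symbol. It was 13.8 ± 1.0 FPKM in wild type and 30.8, 14.5, 12.1 and 14.2 FPKM in db/db. Rpl36al ranged from 0.0973 to 0.413 FPKM over the 9 libraries, and Rpl39l was listed at 0 in all 5 wild-type libraries and at 0.0261, 0.0541, 0 and 0 FPKM in db/db.

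Rps18, a protein of the small subunit head, did not follow the other genes. It lies on chromosome 17 (33951999 to 33956001, mm10, minus strand) and measured 7.66, 31.3, 29.7, 6.87 and 6.0 FPKM in wild type and 54.3, 8.68, 30.5 and 64.5 FPKM in db/db 1, 3, 4 and 5. Its libraries fell into a low set of 4, from 6.0 to 8.68 FPKM, and a high set of 5, from 29.7 to 64.5 FPKM, and both sets held wild-type and db/db libraries. The coefficient of variation in wild type was 79.6%, the highest of the 81. The change was 1.25 ± 0.67 (SE) with all 9 libraries and 0.99 ± 0.71 without db/db 1, with limma adjusted p values of 0.336 and 0.378. The start window printed above for Rps18 carries the pyrimidine run.

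Some neighbours of Rps18 had the same high and low libraries; they were picked after their values were seen, among 22 rows at 1 FPKM or more within 100 kb, and no test is given. H2-K2, a pseudogene of the major histocompatibility complex at 33974659 to 33978827, measured 0.403, 10.04, 10.75, 0.263 and 0.282 FPKM in wild type and 17.1, 0.394, 10.9 and 24.2 FPKM in db/db. The lincRNA CR974462.6 measured 0.175, 1.33, 1.31, 0.063 and 0.061 FPKM in wild type and 2.36, 0.157, 1.49 and 2.82 FPKM in db/db. In both rows the 4 libraries low in Rps18 were the 4 lowest. The same held for Platr17, BC051226, Rgl2 and H2-K1, so for 6 of the other 21 rows in all, but with smaller distances between the libraries. Rgl2, for example, measured 12.6, 15.2, 14.8, 12.1 and 11.7 FPKM in wild type and 18.8, 12.5, 14.7 and 17.9 FPKM in db/db. The split was not confined to this window. H2-D1, picked outside it at 35262730 to 35267499, measured 7.91, 14.3, 13.0, 8.79 and 6.92 FPKM in wild type and 27.4, 7.84, 12.6 and 21.8 FPKM in db/db. Its 4 lowest libraries were those low in Rps18. Vps52, which overlaps Rps18 on the opposite strand, ranged from 19.5 to 23.7 FPKM, and Ring1 from 17.4 to 22.2 FPKM, without this split. Col11a2, in the window, had the reverse order. The 4 libraries low in Rps18 were its 4 highest, from 9.10 to 9.72 FPKM, against 5.58 to 8.34 FPKM in the others. Rows with a reverse order were not counted. What sets the split of libraries was not tested, and no strain is named in the sources used here.

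**Figure D4:**
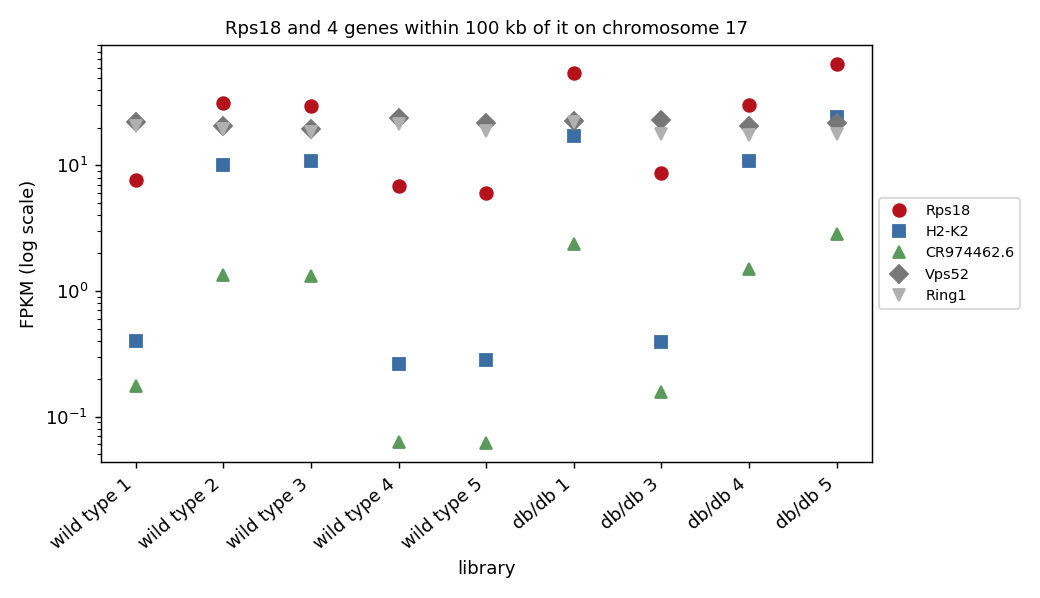
FPKM (vertical axis, log scale) of Rps18 and 4 genes within 100 kb of it on chromosome 17, in each of the 9 libraries (horizontal axis). Rps18, H2-K2 and CR974462.6 are low in wild type 1, 4 and 5 and db/db 3 and high in the other 5 libraries, while Vps52 and Ring1 are level.

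Many of these genes have processed pseudogenes, nearly identical copies of the mRNA in the genome, and reads can be assigned to either. The table holds 225 rows with a -ps name, 107 of them at a mean of 1 FPKM or more, and 224 carry the name of 54 of the 85 genes. For 4 genes the pseudogene rows held more reads than the gene's own row: Rps10 (87.6% of the reads in pseudogene rows), Rpl21 (76.8%), Rpl17 (60.7%) and Rpl3 (53.2%). The median share over the 85 genes was 0.85%. The values of these 4 genes are therefore uncertain as levels of the genes, the low ones of Rps10 and Rpl21 above all, since Rps10-ps2 alone was at 49.6 to 99.7 FPKM. Only rows with a -ps name were counted, and 31 of the 85 genes had none. Copies listed under other names are not in these shares, so other genes may be affected too.

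Rpl3, which sits at the peptidyl transferase centre, measured 46.2, 64.6, 42.3, 44.8 and 39.6 FPKM in wild type, so wild type 2 stood out. Rpl3-ps1 measured 123, 94.3, 129.7, 129.2 and 118 FPKM in the same libraries, lowest in wild type 2. When the pseudogene reads were added to their genes, 6 genes passed as lower without db/db 1, the 5 above and Rpl9, and 0 passed as higher. The pseudogene rows together were 1357 ± 51.0 FPKM in wild type (SD, n = 5), 2648 in db/db 1, and 1404, 1223 and 1452 FPKM in db/db 3, 4 and 5.

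**Figure D5:**
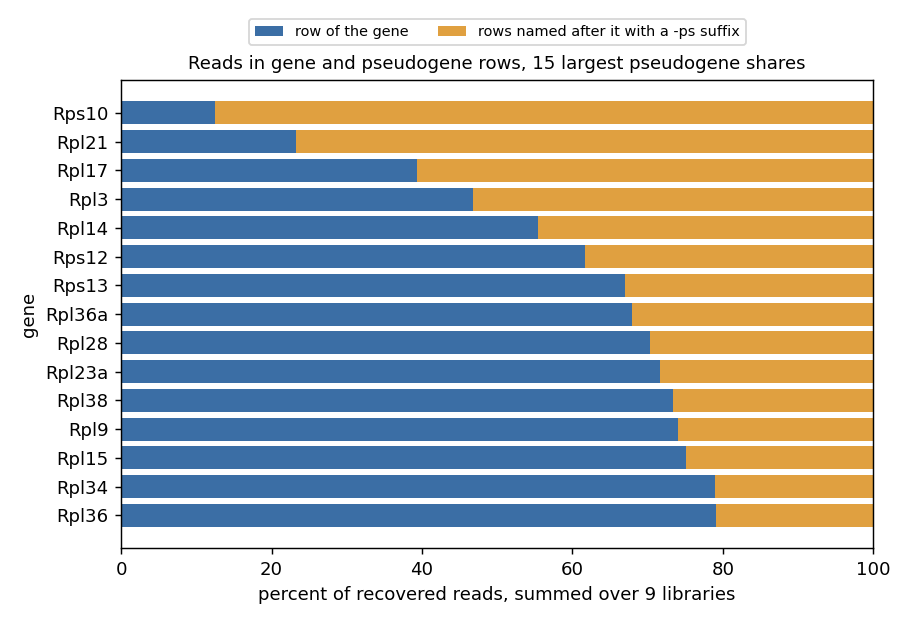
Share of recovered reads, summed over the 9 libraries, in the row of the gene (blue) and in the rows named after it with a -ps suffix (orange), for the 15 genes with the largest pseudogene share (horizontal axis, percent). Rps10, Rpl21, Rpl17 and Rpl3 have more reads in pseudogene rows than in their own.

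Genes that make or use ribosomes were counted in the same comparisons, from lists drawn up for this purpose. With all 9 libraries none of them passed. Without db/db 1, 2 of 39 translation initiation genes were higher and 2 were lower, where 4.72% of all tested genes were higher and 5.84% lower. Eif3l, of the eIF3 complex, rose from 16.9 ± 0.937 (SD, n = 5) to 20.5 ± 1.10 FPKM (SD, n = 3), and Eif4g1, the cap complex scaffold, rose from 44.6 ± 1.30 to 50.4 ± 2.91 FPKM. Mcts1, a reinitiation factor, fell from 13.5 ± 0.69 to 9.72 ± 1.03 FPKM, and Eif4a2, an RNA helicase, fell from 74.2 ± 2.35 to 63.6 ± 2.75 FPKM. The list's median change was 0.03 on the log2 scale.

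Of 16 elongation and termination genes 1 was higher and 1 lower. Eef2, the translocase and itself a TOP mRNA, measured 429, 415, 428, 457 and 433 FPKM in wild type and 443, 478, 519 and 553 FPKM in db/db 1, 3, 4 and 5, with a change of 0.25 ± 0.06 (SE) and a limma adjusted p of 0.033 without db/db 1. Gspt2, a release factor, fell with a change of -0.23. Among 23 TOP mRNAs outside the ribosome Eef2 was the only call, and the median of the list was 0.04. Eef2 was 1.03 times wild type in db/db 1, and Eef1a1, another abundant TOP mRNA, 1.20 times, below the lowest ratio of the 81 genes. They do not stand for the list: its median in db/db 1 was 0.70 above wild type on the log2 scale, and its summed level 1.33 times wild type.

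Of 61 ribosome assembly genes Bop1 and Rrp1 rose (changes of 0.35 and 0.18) and Rrp1b fell (-0.28), and of 21 RNA polymerase I genes Polr2e, a subunit shared by the nuclear polymerases, rose (0.29). Of 38 genes of the mTOR and S6 kinase pathway and of factors at TOP mRNAs or promoters, 2 were higher and 2 lower without db/db 1. Mlst8, an mTOR partner, rose from 11.2 ± 0.603 (SD, n = 5) to 14.1 ± 0.651 FPKM (SD, n = 3), and Rps6kb2, an S6 kinase, rose from 11.8 ± 0.30 to 13.7 ± 0.742 FPKM. Tia1 and Tial1, which bind TOP mRNAs under stress, fell from 6.61 ± 0.543 to 4.64 ± 0.586 FPKM and from 23.0 ± 0.65 to 19.5 ± 1.88 FPKM. Rps6kb1, the other S6 kinase, did not pass (adjusted p 0.797, limma).

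The 77 mitochondrial ribosomal protein genes, which encode the separate ribosome of the organelle, were 1.73 times wild type in db/db 1, with a sum of 1297 against 752 ± 18.8 FPKM (SD, n = 5). Without db/db 1, 61 of the 77 had a change below 0, against 7921 of all 14588 tested genes. The median of the 77 was -0.09, against -0.02 for all tested genes. Mrpl40 (-0.31) and Mrpl48 (-0.20) passed as lower and none passed as higher, where 5.84% of all tested genes were lower and 4.72% higher. The sums in db/db 3, 4 and 5 were 767, 667 and 729.7 FPKM, so db/db 4 was again the lowest library.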

How the data were processed

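Retinal RNA was sequenced from 5 wild-type and 4 db/db libraries, with 1.3 ug of total RNA per library, per the labels' protocols. The authors deposited a single table of FPKM values. The genome was mm10, per the submitters' processing notes. How reads were aligned and counted, and on which strand, was not given in the sources used here. Columns named Control or DR were matched to wild-type or db/db titles by number, and this match is inferred. Symbols, lengths and positions are from GENCODE M21 (34499 of 35397 rows matched). FPKM times exon length moved in steps, of which 99.0% to 99.2% were whole reads within 0.1, and this gave the depth.

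log2(FPKM + 1) was fitted with limma 3.58.1 in R 4.3.3 (eBayes with trend, no covariate) over the 14588 genes averaging 1 FPKM or more, with Benjamini-Hochberg adjustment and a threshold of 0.05. The pseudocount understates fold changes of low genes. No count test was the main test. Alternatives were another pseudocount (0.1), filters (none, 5), no trend, robust fit, scalings, quantile normalization, array weights, replicate block, GC and length corrections (20 bins), leaving out each library, and, added after the data were seen, limma-voom on recovered reads and added pseudogene reads. The ribosomal protein genes and all lists were chosen with earlier results of these data known. Genes were named for a fixed role, a paralog name, the highest and lowest 3 levels, the 5 largest changes each way in each comparison, or passing the test; of other lists, the 2 smallest p values and all calls. Others were chosen after their values were seen. A few named genes are not reported here. Promoters came from RefSeq. Figures used matplotlib 3.10.9.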

Additional observations from a re-analysis of the deposited data

Results flagged for a closer look

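In groups of 4 or 5 libraries, a value was marked when its gap to the nearest other library exceeded the 95% limit of Dixon's test for the group's size, as a share of the group's range. Of 162 such tests on the 81 genes, chance marks about 1 in 20. The tests share the same libraries and are not independent, so this share is no measure for many marks from a single library. db/db 1 was marked as high for 34 genes, wild type 5 as low for 5, and wild type 4 and wild type 2 as high for 1 each.

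The summed level of the 81 genes was marked in both groups, with 9419 FPKM in db/db 1 and 4165 FPKM in wild type 5. Among the genes named by role, db/db 1 stood apart for Rps6 (199.99 FPKM), Rpl5 (60.5 FPKM), Rpl11 (70.9 FPKM), Rpl10 (83.0 FPKM), Rps4x (181 FPKM) and Rps19 (15.8 FPKM). It also stood apart for Rps19bp1 (30.8 FPKM), Rps15 (711 FPKM), Rps27rt (102 FPKM), Rpl36 (233 FPKM), Rpl17 (59.9 FPKM) and Rpl19 (136 FPKM). In wild type, Rpl5 was high in wild type 4 (35.9 FPKM), and Rps19 (5.18 FPKM) and Rpl36 (73.8 FPKM) were low in wild type 5. Rps16, Rps23 and Rps14 were also low in wild type 5, at 67.9, 73.6 and 44.2 FPKM, and Rpl3 was high in wild type 2, at 64.6 FPKM.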

How the results depend on the processing

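With all 9 libraries no ribosomal protein gene passed under the alternatives run, except with array weights, where 1 passed as lower (Rpl23a), and without db/db 1, where 5 passed as lower, among them Rps6 (-0.18) and Rpl19 (-0.27), which changed sign. Genes higher and lower over all genes numbered 7 and 2 without a filter, 17 and 13 with the filter at 5 FPKM, 21 and 15 with equal sums, 550 and 656 with array weights, 5 and 1 with GC correction, and 270 and 243 with length correction, and limma-voom gave 64 lower. The median change of the 81 genes was 0.107 with quantile normalization, -0.0206 with array weights and 0.110 with length correction. Leaving out each library gave 3 to 688 higher and 1 to 852 lower genes, 0 to 5 ribosomal protein genes lower and a median of -0.0386 (without db/db 1) to 0.345 (without db/db 4). Over the same left-out libraries the change of Rps6 ran from -0.18 to 0.188 and that of Rpl19 from -0.27 to 0.178, each highest without db/db 4.

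Without db/db 1, no filter gave 245 higher and 190 lower genes with 0 ribosomal protein genes lower. GC correction gave 374 and 341 with 3 lower (Rps6, Rpl19 and Rpl23a), and equal sums 1050 and 610 with 5 lower. Length correction gave 1052 and 940 with 8 ribosomal protein genes lower, and quantile normalization 758 and 749 with 8. Leaving out a further library gave 152 to 929 higher and 153 to 1603 lower genes, 0 to 2 ribosomal protein genes higher, 0 to 14 lower, and a median of -0.0823 to 0.0220. The 14 came without db/db 3, where 1603 of all genes were lower. The 2 higher came without db/db 4, where 289 of all genes were higher, and 0 lower came without wild type 3 or db/db 5. With all 9 libraries, 2 ribosomal protein genes had groups without overlap upward under median-of-ratios scaling and 2 under equal sums. The share of all genes was not counted under these scalings, and without scaling it was 5.2%. The ratio of db/db 1 to wild type was 1.49 after length correction and 1.92 after GC correction. Of the values of named genes, 38 of 732 with all 9 libraries and 32 of 700 without db/db 1 changed sign. The cause of these differences was not tested.

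The replicate block, which pairs libraries by number, gave 2 higher and 0 lower genes with all 9 libraries and 2 and 0 without db/db 1, with 0 ribosomal protein genes lower. The labels do not say whether libraries with the same number share more than the number. The correlations of their deviations were 0.043, 0.046, -0.18 and 0.13, and those between different numbers ran from -0.21 to 0.18. So few correlations cannot decide whether a number marks a shared batch. Rpl24, Rpl3l, Rpl36al and Rpl39l, below 1 FPKM, were left out of the filtered fits.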
